A study of Mus musculus with 6 samples.

Results

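Voltage-gated sodium and calcium channel genes were compared between olfactory sensory neurons (OSNs), which detect odours in the nose, the rest of the epithelium without its mature OSNs, and brain. The genes were chosen by name, as every gene whose symbol is Scn followed by a digit (pore-forming and beta subunits of sodium channels) or starts with Cacn (subunits of calcium channels). This naming rule used no measured values, but it was set with earlier results of these data known. The chosen genes came to 35 of the 18193 genes that had a probe set with a single gene symbol. They were read by 85 probe sets, 47 on the array called chip A and 38 on chip B. Of the 35 genes, 11 encode sodium channel subunits and 24 encode calcium channel subunits or their relatives.

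All RNA came from OMP-GFP mice, which carry GFP in place of the coding sequence of Omp, a gene of mature olfactory and vomeronasal sensory neurons. One population was the GFP-positive neurons taken by fluorescence sorting (about 500000 cells), the other was olfactory epithelium depleted of those neurons, called residual epithelium here (about 2500000 cells), and the last was brain with its olfactory bulbs left out. Age, sex, strain, the number of Omp copies replaced and the number of animals were not stated in the labels, and no wild-type mice were compared. Each population was read by 1 Affymetrix array per chip, 6 in all, so no value has a replicate and no p-value is given.

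Sodium channels open when a neuron depolarises and carry the rising phase of the action potential. Each has a large alpha subunit that forms the pore, with beta subunits that alter its gating and placement in the membrane. Calcium channels turn electrical activity into calcium entry, which triggers transmitter release at synapses and shapes firing. Their alpha1 subunit forms the pore, while beta and alpha2delta subunits carry it to the membrane and tune it. Proteins named as gamma subunits are a mixed family, several of which serve AMPA-type glutamate receptors rather than calcium channels. In an OSN, the odour response in the cilia depolarises the cell, and sodium channels then send spikes along an unmyelinated axon to the olfactory bulb.

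The 250 bases before the annotated transcription start are shown for 5 genes, in RefSeq's GRCm38.p6 annotation and 5′ to 3′ on the strand of the gene, with CpG dinucleotides in capitals. Scn9a (chr2:66634963-66635212, minus strand) and its neighbour Scn1a (chr2:66440838-66441087, minus strand) are shown because their signals ran in opposite directions between OSNs and brain. Scn4b (chr9:45138374-45138623, plus strand) and its neighbour Scn2b (chr9:45117626-45117875, plus strand) are shown for the same reason. Cacna1b (chr2:24763153-24763402, minus strand) is shown for the motif described after the sequences.
Scn9a: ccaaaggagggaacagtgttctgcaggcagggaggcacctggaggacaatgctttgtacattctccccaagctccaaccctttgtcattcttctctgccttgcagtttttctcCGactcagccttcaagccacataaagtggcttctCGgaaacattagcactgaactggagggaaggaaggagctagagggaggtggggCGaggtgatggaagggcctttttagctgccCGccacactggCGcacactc
Scn1a: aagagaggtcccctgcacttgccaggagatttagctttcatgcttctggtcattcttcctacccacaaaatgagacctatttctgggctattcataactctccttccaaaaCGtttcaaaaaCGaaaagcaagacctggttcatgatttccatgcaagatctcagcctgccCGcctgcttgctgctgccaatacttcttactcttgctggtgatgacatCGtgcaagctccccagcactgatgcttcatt
Scn4b: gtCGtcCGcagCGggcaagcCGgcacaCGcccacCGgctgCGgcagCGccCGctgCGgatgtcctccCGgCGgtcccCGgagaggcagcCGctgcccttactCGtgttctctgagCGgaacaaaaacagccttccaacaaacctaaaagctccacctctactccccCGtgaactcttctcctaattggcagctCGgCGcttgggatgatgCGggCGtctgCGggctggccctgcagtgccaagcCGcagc
Scn2b: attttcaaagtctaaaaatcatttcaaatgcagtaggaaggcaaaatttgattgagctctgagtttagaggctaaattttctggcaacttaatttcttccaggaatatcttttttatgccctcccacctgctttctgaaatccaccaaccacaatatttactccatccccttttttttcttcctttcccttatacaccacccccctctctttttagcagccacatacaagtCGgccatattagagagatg
Cacna1b: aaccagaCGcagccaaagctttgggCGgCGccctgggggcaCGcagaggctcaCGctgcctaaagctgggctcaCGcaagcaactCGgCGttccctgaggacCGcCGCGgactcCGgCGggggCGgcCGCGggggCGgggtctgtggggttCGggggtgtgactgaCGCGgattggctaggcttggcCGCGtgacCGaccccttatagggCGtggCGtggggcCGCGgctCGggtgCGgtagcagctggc

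The windows of Scn9a and Scn1a held 5 and 4 CpG dinucleotides, near the median of 6 over 32851 such windows, and their GC contents were 54.4% and 46.8% against a median of 52.4%. The window of Scn4b held 23 CpG dinucleotides at 66.0% GC and that of Scn2b held 1 at 38.4% GC, so this pair differed in base composition and the other pair did not differ much. A window was listed for 27 of the 35 genes, 37 windows in all because some genes have several starts. The core letters bound by EBF factors, which act in olfactory neurons, are CCCNNGGG, a palindrome that reads the same on both strands. They occurred in 5 of the 37 windows (13.5%) and in 11.8% of all windows. Those 5 windows belong to Cacna1b, Cacnb4, Cacng3, Cacng5 and Cacna2d3, and in Cacna1b the match is CCCTGGGG, beginning 220 bases before the start. The letters TTCAGCACC, the left part of the site of the neuronal repressor REST, were searched on both strands and occurred in 0 of the 37 windows and 0.301% of all windows. The homeodomain core TAATTA, a palindrome, occurred in 0 of the 37 and 4.84% of all, and TATAAA, searched on both strands, in 2 of the 37 (5.41%; Scn2a and Cacna1d) and 12.4% of all.

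The populations carried the markers of their labels. The 7 mature OSN markers, Omp among them, all exceeded both other populations by 2-fold or more in sorted OSNs, while 4 of 5 immature OSN markers were lower in sorted OSNs than in residual epithelium. All 9 blood and marrow markers were lower in sorted OSNs than in residual epithelium, where their signals ran from 1610 to 16940. All 7 brain neuron and all 7 brain glia markers were lower in both nasal populations than in brain. In OSNs, Gad1, Nrgn and Mog were at or below the floor. Camk2a and Slc1a2 were not low there, at 1373.1 and 4519.1 in OSNs against 258.5 and 780.5 in residual epithelium. Sorted OSNs were not free of other signals: 4 markers of sustentacular cells, the supporting cells of the epithelium, read 110.6 to 3821.8 there, and 2 of the 4 were lower than in residual epithelium. Signals were MAS5 units, a linear intensity that had been scaled to the same mean on every array. In such bulk RNA, fewer cells of a type and less RNA per cell cannot be told apart.

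The 35 genes were read in 3 comparisons, each as the ratio of 2 signals of the same probe set, with low signals raised to a floor (70.3 on chip A, 79.7 on chip B). A gene was counted where the higher signal reached the chip median (222 on chip A, 243.7 on chip B), and a ratio of 2-fold was called higher or lower. Where only the higher signal reached the median, the direction of the ratio was largely set by that filter. Of the 35 genes, 8 were counted in no comparison and are listed near the end. Comparing OSNs with residual epithelium, 10 genes were higher in OSNs, 1 was lower, 8 were within 2-fold and the other 16 were not counted. Over all 12254 counted genes, 12.8% were higher and 18.7% lower. The median log2 ratio was 1.03 over the counted channel genes and -0.05 over all counted genes. Comparing OSNs with brain, 6 genes were higher in OSNs, 14 were lower, 7 were within 2-fold and 8 were not counted, where 18.5% of all counted genes were higher and 21.1% lower. Residual epithelium exceeded brain at 1 gene and was below it at 18, with 7 within 2-fold and 9 not counted, against 22.5% higher and 18.9% lower over all counted genes.

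The directions did not all rest on the filter. With both signals at or above the chip median, 8 of 12 channel genes had OSNs above residual epithelium and 0 below, where 11.6% of all such genes were higher and 9.97% lower. Between OSNs and brain, 5 of 15 were higher and 4 lower, where 16.4% of all such genes were higher and 11.9% lower. Between residual epithelium and brain, 0 of 13 were higher and 6 lower, where 16.3% and 13.6% of all such genes were. Without any signal filter, the 35 genes had 10 above and 2 below residual epithelium in OSNs, with a median log2 ratio of 0, where 9.54% and 14.3% of all 18193 genes were. Against brain the unfiltered counts were 6 above and 16 below in OSNs (13.6% and 16.0% of all genes) and 1 above and 20 below in residual epithelium (17.3% and 14.7% of all genes).

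Genes were also sorted by whether 1 population stood at least 2-fold apart from both others. Signals in OSNs were above both other populations for 6 of the 19 genes counted in both OSN comparisons, namely Scn9a, Scn3b, Scn4b, Cacna1d, Cacna1h and Cacnb2, where 7.69% of all such genes were. Cacna1e alone was lower in OSNs than in both, where 6.82% of all such genes were. Brain stood above both nasal populations for 14 of 26 genes, where 14.3% of all such genes did. Among those 14, Scn2b alone had both nasal signals at or above the chip median. The others passed the filter in at least 1 comparison through brain only, which largely set that direction. Residual epithelium stood above both other populations for 0 of 18, where 11.3% of all such genes did. The remaining genes differed less, or between 1 pair of populations.

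**Figure D1:**
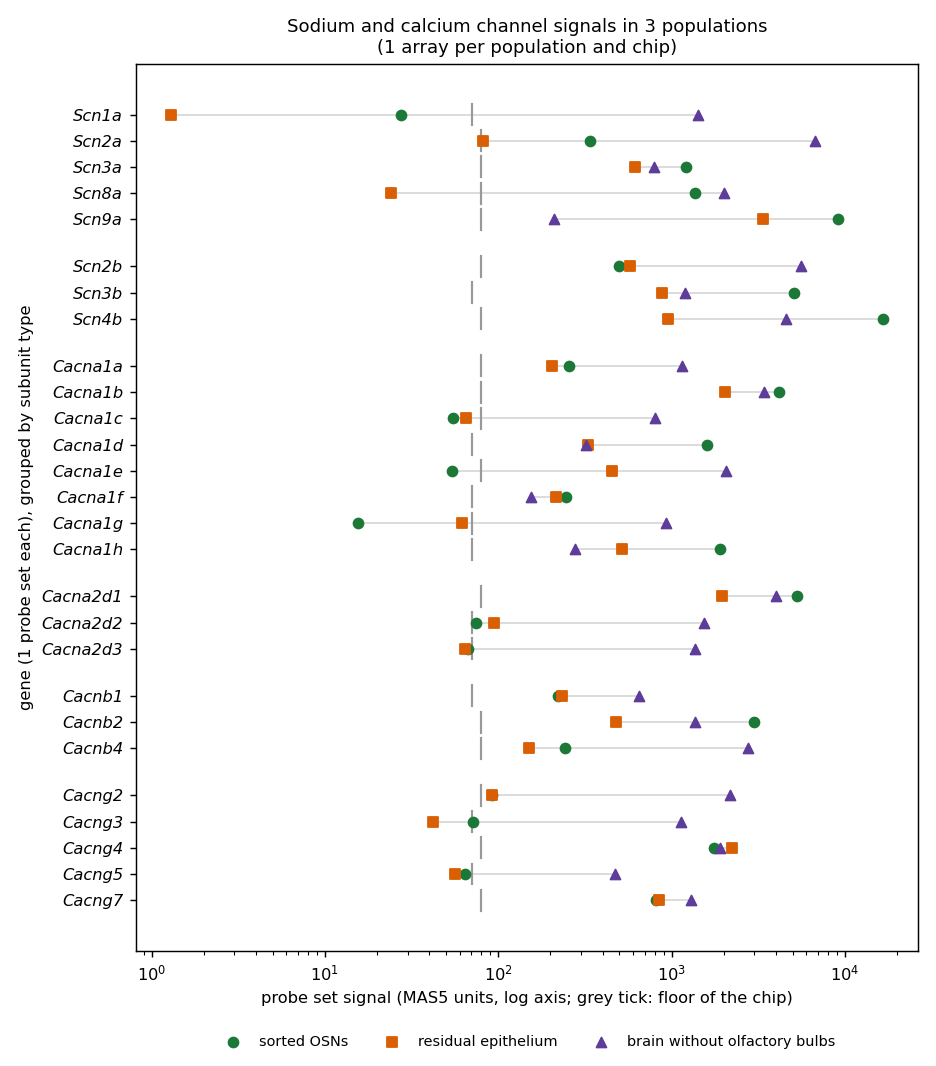
Signal of each counted channel gene in sorted OSNs (circles), residual epithelium (squares) and brain without olfactory bulbs (triangles), in MAS5 units on a log axis, for 1 probe set per gene and 1 array per point, with the floor of the chip as a grey tick. By the probe sets shown, Scn9a is high in both nasal populations and low in brain, and Scn8a is near brain level in OSNs and below the floor in residual epithelium. However, 3 of 4 counted Scn8a probe sets put OSNs at least 2-fold below brain, and 1423515_at reads 120.9 in residual epithelium, above the floor. Cacng2 has the same signal, 92.1, in OSNs and residual epithelium, so those points coincide.

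Scn9a was the 1 sodium channel alpha subunit higher in both nasal populations than in brain, while Scn1a and Scn2a were lower in both. Scn9a encodes the channel of peripheral sensory neurons whose loss in people abolishes both pain and smell. Probe set 1442810_x_at read 9139.6 in OSNs, 3387.7 in the residual epithelium and 209.6 in brain. OSNs were highest, residual epithelium lay between, and the brain signal was below the chip median. The OSN signal was 2.70-fold that of residual epithelium and 43.6-fold that of brain, and 39 of the 12380 counted genes, Scn9a included, had a ratio to brain at least this high. All 5 Scn9a probe sets agreed in direction, at 2.70-fold to 5.14-fold over residual epithelium and 7.46-fold to 43.6-fold over brain, with 2 of the ratios to brain as minimum values. The probe sets farthest from the first one were 1442333_a_at (599, 127.3 and 39.1 in OSNs, residual epithelium and brain) and 1457819_at (1123.1, 338.6 and 150.6). Residual epithelium was 16.2-fold above brain for Scn9a, and a difference past 2-fold held at 4 of its 5 probe sets.

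Scn8a, the channel of mature nodes and axon initial segments, differed most between OSNs and residual epithelium among the alpha subunits. Its signal was 1374.2 in OSNs, 24 in the residual epithelium and 2013.6 in brain (1439889_at). Residual epithelium lay below the floor, and the OSN and brain signals were 1.47-fold apart, with brain above. The OSN signal was at least 17.2-fold that of residual epithelium by this probe set. Other probe sets gave smaller differences from residual epithelium, 5.47-fold for 1423515_at (661, 120.9 and 1786) and at least 7.16-fold for 1457412_at (570.9, 58.4 and 2937.2). They also put OSNs further below brain, with log2 ratios of -1.43 and -2.36 and, for 1451894_a_at (202, 41.3 and 795.7), -1.98. The statement that Scn8a in OSNs was within 2-fold of brain therefore holds for 1 probe set of 4, and the median over probe sets was -1.71. A further probe set, 1442208_at, was below the floor in all 3 populations.

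Scn2a, the main channel of unmyelinated axons in brain, read 336.4 in OSNs, 81.3 in the residual epithelium and 6709.8 in brain (1435933_at). The OSN signal exceeded that of residual epithelium, which was barely above the floor, 4.14-fold, and it was 19.9-fold lower than that of brain. Residual epithelium was 82.5-fold below brain, and only 5 of the 12916 counted genes, Scn2a included, had a ratio this low. Of the other Scn2a probe sets, 1445259_at (350.8, 53.8 and 1043.1) and 1427280_at (233.3, 53.2 and 1636.1) also placed OSNs between residual epithelium and brain. The last, 1427281_at, was above the floor in brain alone (11.2, 4.9 and 797.2). The call for Scn2a over residual epithelium was lost when the floor was set at percentile 40 of the signals, where its log2 ratio was just short of 1, against 2.05 with the floor used here, and Scn2a was not counted there with the signal filter at percentile 75.

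Scn3a, a channel prominent in the developing brain, read 1214.6 in OSNs, 616.9 in the residual epithelium and 786.8 in brain (1439204_at). OSNs were highest, by log2 ratios of 0.98 and 0.63, both short of 2-fold. Under 3 other scalings the first of these passed 2-fold, at 1.02 to 1.10. Its other probe set was below the floor everywhere. Scn1a, the channel of inhibitory interneurons, read 27.6 in OSNs, 1.3 in the residual epithelium and 1421.6 in brain (1450121_at). Both nasal signals were below the floor, at least 20.2-fold under brain, and both other probe sets had the same order relative to brain, down to at least 5.08-fold for 1441728_at (8.1, 55.8 and 404.9). In the RefSeq order of protein-coding genes on chromosome 2, Scn1a, Scn9a and Scn7a are neighbours, as are Scn3a and Scn2a. Scn9a and Scn1a were thus adjacent genes of which 1 was higher in OSNs than brain at all 5 probe sets and the other lower at all 3.

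Of the 3 sodium channel beta subunits, 2 were above both other populations in OSNs. Scn4b, whose protein is linked to the alpha subunit by a disulfide bond and supports resurgent sodium current, read 16559.7 in OSNs, 953.2 in the residual epithelium and 4565.1 in brain (1434008_at, its sole probe set). The OSN signal was 17.4-fold that of residual epithelium and 3.63-fold that of brain. Only 43 of 12254 counted genes, Scn4b included, had a ratio to residual epithelium this high. Scn3b, which associates with the alpha subunit without that bond, read 5057.4, 883.7 and 1194.1 in the same order (1435767_at). OSNs were 5.72-fold above residual epithelium and 4.24-fold above brain, and the other probe set gave 8.80-fold and 3.97-fold.

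Scn2b, the other disulfide-linked beta subunit on these arrays, went the opposite way. Its signal was 500.5 in OSNs, 574.2 in the residual epithelium and 5613.1 in brain (1430648_at). Brain was 11.2-fold above OSNs, and the nasal populations were 1.15-fold apart. Its probe sets did not give 1 size of difference: 1436134_at read 81.9, 311.9 and 6645.6, which is 81.1-fold lower in OSNs than in brain and 3.81-fold lower than in residual epithelium, while 1457144_at read 180.9, 354.5 and 551.2. Scn2b and Scn4b are adjacent on chromosome 9, and OSNs were above brain for Scn4b and below it for all 3 probe sets of Scn2b.

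**Figure D2:**
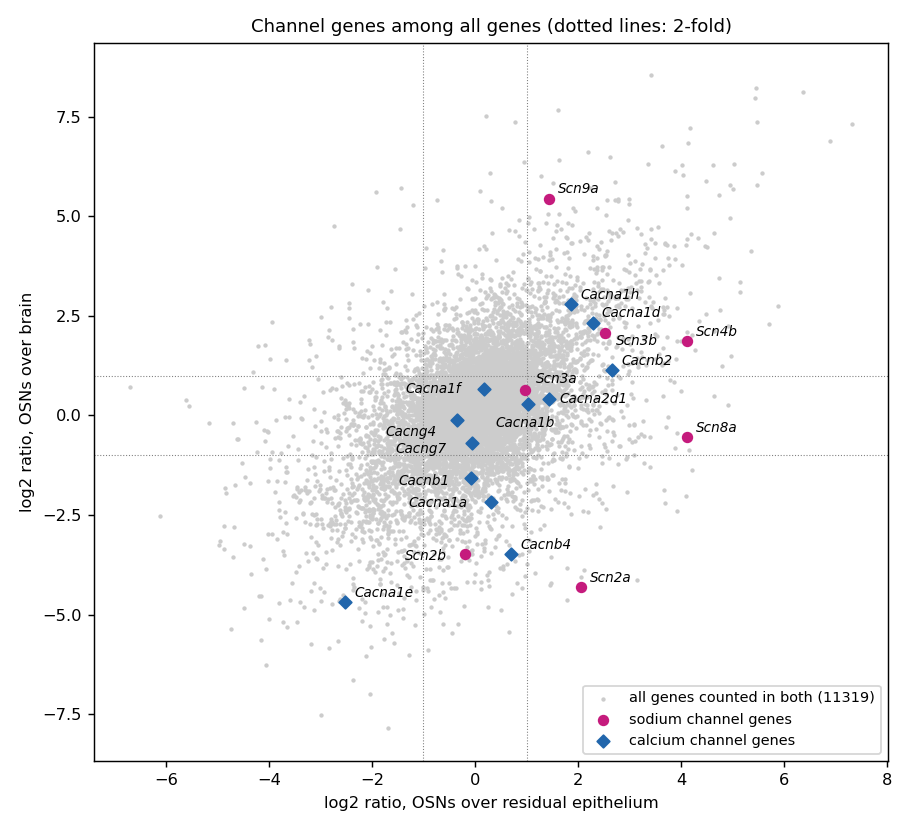
Log2 ratio of OSNs over residual epithelium (x axis) against log2 ratio of OSNs over brain (y axis) for 11319 genes counted in both (grey), with sodium channel genes as circles and calcium channel genes as diamonds and 2-fold as dotted lines; the axes share the OSN arrays. The 6 channel genes in the upper right corner are Scn9a, Scn3b, Scn4b, Cacna1d, Cacna1h and Cacnb2, and Scn8a and Scn2a lie to the right but below 0 on the y axis.

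Of the 9 calcium channel pore subunits, 6 were counted between OSNs and residual epithelium, with 3 higher in OSNs and 1 lower. Over all counted genes, 12.8% were higher and 18.7% lower. The 3 higher ones were a T-type, an L-type and an N-type channel. Cacna1h, a T-type channel that opens at small depolarisations, read 1905.7 in OSNs, 520.6 in the residual epithelium and 275.7 in brain (1422710_a_at). OSNs were highest, 3.66-fold over residual epithelium and 6.91-fold over brain, and its other probe set did not reach the signal filter (185.7, 120.7 and 53.9). Cacna1d, an L-type channel of hair cells, pacemaker cells and neurons, read 1598, 328.2 and 319 (1427974_s_at), 4.87-fold over residual epithelium and 5.01-fold over brain. Its second probe set, 1428051_a_at (505.2, 196.6 and 370.7), was 2.57-fold over residual epithelium but short of 2-fold over brain, at a log2 ratio of 0.45. Both Cacna1d probe sets thus read higher in OSNs than in brain, and 1 of the 2 passed 2-fold.

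Cacna1b, the N-type channel of presynaptic terminals, had high signals in every population by its chip B probe sets. It read 4178.2 in OSNs, 2044.2 in the residual epithelium and 3398.5 in brain (1439612_at), with OSNs 2.04-fold above residual epithelium and 1.23-fold above brain. This was the called ratio nearest to 2-fold in that comparison, and under quantile normalization it fell to a log2 ratio of 0.84, below the call. The probe sets 1436602_x_at (4018.9, 1456.4 and 2301.8) and 1460608_at (4126.9, 1545.6 and 1467) gave 2.76-fold and 2.67-fold over residual epithelium. Against brain they gave log2 ratios of 0.80 and 1.49, so the probe sets differed on whether OSNs passed 2-fold. The chip A probe set, 1425812_a_at, did not reach the signal filter (161.3, 33.5 and 130.1) and was below the floor in residual epithelium.

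The other presynaptic channels were lower in OSNs than in brain. Cacna1a, the P/Q-type channel, read 255.1 in OSNs, 204.9 in the residual epithelium and 1143.4 in brain (1430408_at), 4.48-fold lower in OSNs than in brain, and both other counted probe sets had the same direction. A probe set under the signal filter, 1444455_at, ran the other way (189.2, 102.1 and 72.9). Cacna1e, the R-type channel, read 54.3, 456.3 and 2048.0 (1436260_at). Its OSN signal was below the floor, at least 5.73-fold under residual epithelium and at least 25.7-fold under brain, which made it the 1 channel gene called lower in OSNs than in residual epithelium. The other Cacna1e probe set, 1421692_at, read 74.4, 86.8 and 77, below the signal filter in every population, so this call stands on 1 probe set. With the signal filter at percentile 75 Cacna1e was no longer counted between the nasal populations, and 0 channel genes were then lower in OSNs.

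Brain signals alone were well above the floor for Cacna1c, an L-type channel of heart and neurons, and Cacna1g, a T-type channel of thalamic neurons. Cacna1c read 54.6 in OSNs, 65.6 in the residual epithelium and 804.4 in brain (1435730_at), at least 10.1-fold lower in OSNs than in brain. Its second probe set gave a log2 ratio of -1.15 (1421297_a_at; 106.4, 93.7 and 236). Cacna1g read 15.6, 61.7 and 931.6 (1423365_at), at least 13.3-fold lower in OSNs than in brain. Cacna1f, the L-type channel of photoreceptors, read 244.9, 215.6 and 155.1 (1449955_at) and was within 2-fold in both OSN comparisons.

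Of the alpha2delta subunits, which raise the number of channels at the membrane, Cacna2d1 had signals above the chip median in all populations and the other 3 genes did not. Cacna2d1, a target of gabapentin, read 5304.7 in OSNs, 1957.5 in the residual epithelium and 3984.8 in brain (1433643_at). OSNs were 2.71-fold above residual epithelium and 1.33-fold above brain. Its 4 other probe sets lay between log2 ratios of 0.22 (1441608_at; 289.8, 248.9 and 270.8) and 1.81 (1425861_x_at; 312, 89 and 375.1) over residual epithelium. Over brain they lay between -0.27 (1425861_x_at) and 2.13 (1440397_at; 442.5, 222.6 and 101.4), so the sign relative to brain depended on the probe set. Residual epithelium was lower than brain for Cacna2d1 by a log2 ratio of -1.03, which a pseudocount in place of the floor moved to -1, just short of the call.

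Cacna2d2, whose loss gives cerebellar ataxia in mice, read 74.2 in OSNs, 94.5 in the residual epithelium and 1544.7 in brain (1450754_at), 20.8-fold lower in OSNs than in brain. Cacna2d3 read 67.3, 64.6 and 1363.6 (1419225_at), at least 19.4-fold lower. Both nasal signals of these genes were at or near the floor. Cacna2d4, which serves photoreceptor synapses, did not reach the filter by its representative probe set (28.4, 222.6 and 236.4), although 1441084_at did in brain (66.9, 167.8 and 269.3).

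The beta subunits, which sit on the cytoplasmic face of the pore subunit, were split between Cacnb2 and the others. Cacnb2, the main beta subunit of heart, read 3005.1 in OSNs, 476 in the residual epithelium and 1371.5 in brain (1456401_at). The OSN signal was 6.31-fold that of residual epithelium, the largest ratio among calcium channel genes in that comparison, and 2.19-fold that of brain. The second probe set, 1452476_at (661, 31.3 and 206.4), gave at least 9.40-fold and 3.20-fold. The ratio to brain was the called one nearest to 2-fold, and it fell to a log2 ratio of 0.79 when arrays were scaled on the probe sets that both chips carry.

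Cacnb4, the gene mutated in the lethargic mouse, read 244.4 in OSNs, 150.6 in the residual epithelium and 2743.1 in brain (1428928_at). It was 11.2-fold lower in OSNs than in brain and, at 1.62-fold, within 2-fold between the nasal populations, and both other probe sets were lower in OSNs than in brain. Cacnb1, the beta subunit of skeletal muscle that neurons also express, read 220.5, 234.2 and 650.8 (1425777_at), 2.95-fold lower in OSNs than in brain. Its probe set on chip B, 1440940_at (73.7, 99.3 and 1522), put that difference at a minimum of 19.1-fold.

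Of the 8 genes of the gamma family, 2 were counted between OSNs and residual epithelium and neither was called higher or lower. Cacng4, which serves AMPA receptors, read 1756.3 in OSNs, 2232.2 in the residual epithelium and 1899.6 in brain (1455230_at), and Cacng7, of the same group, read 810.9, 849.8 and 1301 (1439745_at). Both were within 2-fold in every comparison, but Cacng7 passed 2-fold below brain in both nasal populations when arrays were scaled on the shared probe sets (log2 ratios of -1.03 in OSNs and -1.08 in residual epithelium). Cacng2, or stargazin, which carries AMPA receptors to the membrane, read 92.1, 92.1 and 2166.7 (1440210_at), 23.5-fold lower in OSNs than in brain. Its other counted probe set, 1420596_at (14.1, 9.2 and 717.7), gave at least 10.2-fold, while 1453363_at, under the signal filter, did not separate the populations (126.3, 89.3 and 107.2). Cacng3, of the same receptor group, read 72.0, 41.8 and 1134.2 (1450520_at), 15.8-fold lower in OSNs than in brain. Cacng5 read 64.5, 56.4 and 473.6 (1434785_at), at least 6.74-fold lower, and its other probe set did not reach the filter (147.8, 75.7 and 199.9). Cacng5 was not counted in either comparison with brain when the filter was at percentile 75. For these 3 genes the nasal signals were at or near the floor, and brain alone was high.

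The 8 genes counted in no comparison were Scn7a, Scn10a, Scn11a, Cacna1s, Cacna2d4, Cacng1, Cacng6 and Cacng8. Their representative signals ran from 10.2 to 236.4 over the 3 populations. Scn10a and Scn11a encode channels of pain-sensing neurons, and Scn7a encodes a channel gated by salt level. Cacna1s and Cacng1 encode subunits of the skeletal muscle channel. Striated muscle markers at or below the floor numbered 4 of 8 for OSNs, 3 for residual epithelium and 2 for brain. Among the others, Ckm (697.6) and Ttn (300.7) exceeded the chip B median in OSNs, while Actc1 (107.1) and Mylpf (84.1) lay below the chip A median. A signal below the filter on these arrays does not show that a gene is silent.

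**Figure D3:**
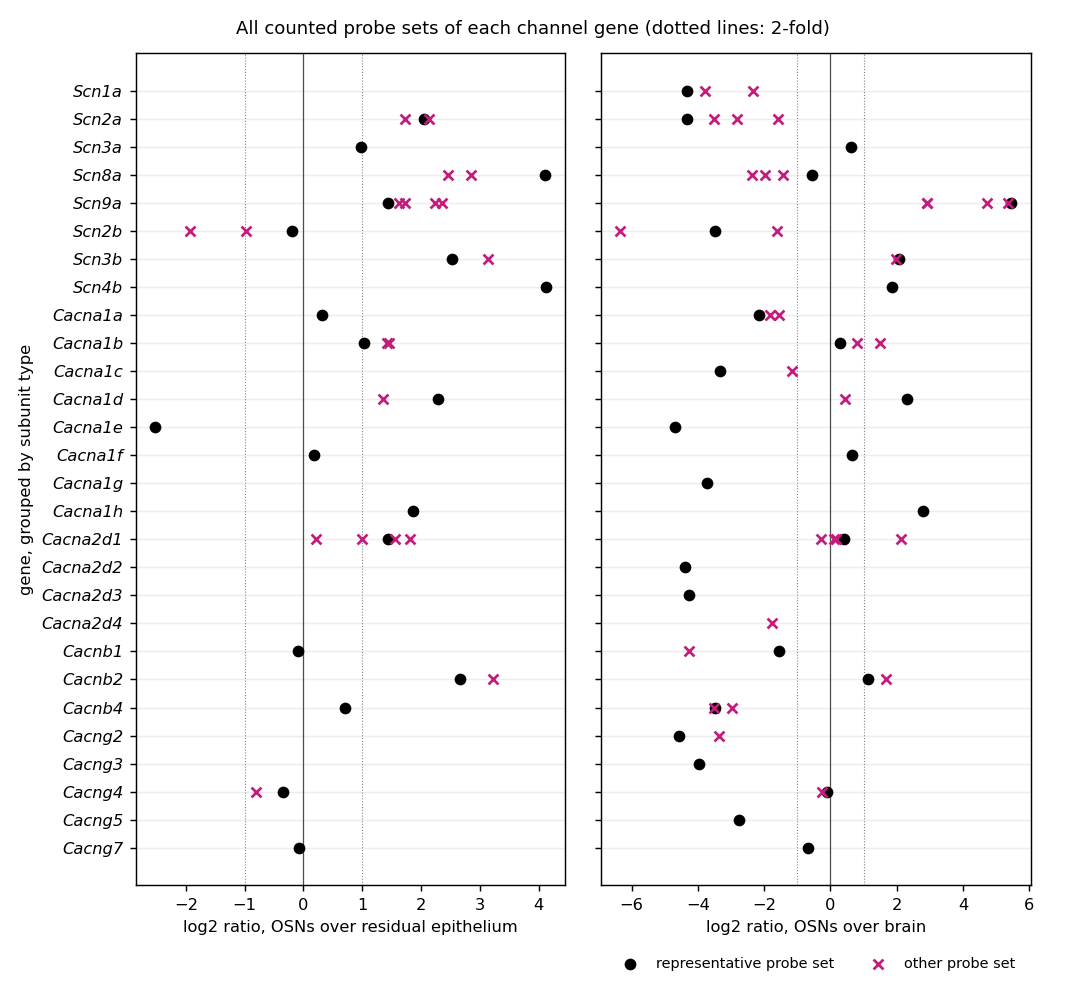
Log2 ratio of OSNs over residual epithelium (left) and of OSNs over brain (right) for every counted probe set of each channel gene, with the representative probe set as a filled circle, other probe sets as crosses and 2-fold as dotted lines. The crosses lie on the same side of 0 as the circle for 20 of 20 other probe sets on the left and 30 of 31 on the right. The sizes of the ratios differ widely for several genes, among them Scn2b, Scn2a, Cacnb1, Scn9a, Cacna2d1, Cacna1c and Scn8a.

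Direction was shared among the probe sets of a gene more than size was. Over all genes, 6445 of 8610 other probe sets had the sign of the representative one for OSNs over residual epithelium and 6838 of 9228 for OSNs over brain. Among genes past 2-fold these were 2065 of 2218 and 3081 of 3402, and among channel genes past 2-fold they were 17 of 17 and 21 of 21. Counting each probe set on its own, 25 of 39 were above residual epithelium in OSNs and 2 were below, where 13.2% and 17.9% of all counted probe sets were. Between OSNs and brain, 14 of 59 were higher and 32 lower, where 17.5% and 22.4% of all were, and between residual epithelium and brain 4 of 55 were higher and 37 lower, where 21.0% and 21.0% of all were. Probe sets of 1 gene share its RNA and its array and are not replicates of a population. The 99 probe sets that both chips carry gave log2 ratios whose difference between chips had an SD of 0.25 (OSNs over residual epithelium), 0.29 (OSNs over brain) and 0.34 (residual epithelium over brain). For these comparisons the other probe sets of a channel gene departed from its representative one with an SD of 0.82, 1.52 and 1.46, against 0.85, 1.09 and 1.07 over all genes. The same probe sets gave ratios that were offset between chips, by a mean of -0.23, 0.19 and 0.42 (chip B minus chip A, log2), and counts here pool genes read on either chip. A 2-fold ratio was thus larger than the offset and the SD between chips, and near or within the SD between probe sets. Neither spread stands for the spread between animals. Probe sets that end in _x_at or _s_at can read several transcripts. This touches 1442810_x_at of Scn9a, 1427974_s_at of Cacna1d, 1436602_x_at of Cacna1b and 1425861_x_at of Cacna2d1.

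The signal left in residual epithelium differed among the channel genes. For the 10 genes higher in OSNs than in residual epithelium, 25 probe sets passed 2-fold, and their residual signal, with low values raised to the floor, was 5.76% to 48.9% of the OSN signal, with a median of 24.2%. Choosing probe sets by 2-fold keeps this share at or under 50%, and it leaves out counted probe sets above that, such as 1440397_at (50.3%) and 1441608_at (85.9%) of Cacna2d1. For 5 of these probe sets the residual signal was at or below the floor, so the percentage is an upper limit. Scn8a kept at most 5.80% by 1439889_at and 18.3% by 1423515_at, Scn4b 5.76%, Scn3b 11.4% and 17.5%, Cacna1h 27.3%, Scn9a 19.5% to 37.1% and Cacna1b 36.2% to 48.9%. The 7 mature OSN markers, a list made of genes strong in these neurons, kept 1.21% to 5.57%, with a median of 2.29%. With members chosen in these ways, the shares are a description and give no comparison of channels with markers. The 5 immature OSN markers read 177% to 930% of the OSN signal in residual epithelium, with a median of 390%. The part of immature neurons, of blood and marrow cells and of unsorted OSNs in these residual signals was not tested.

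**Figure D4:**
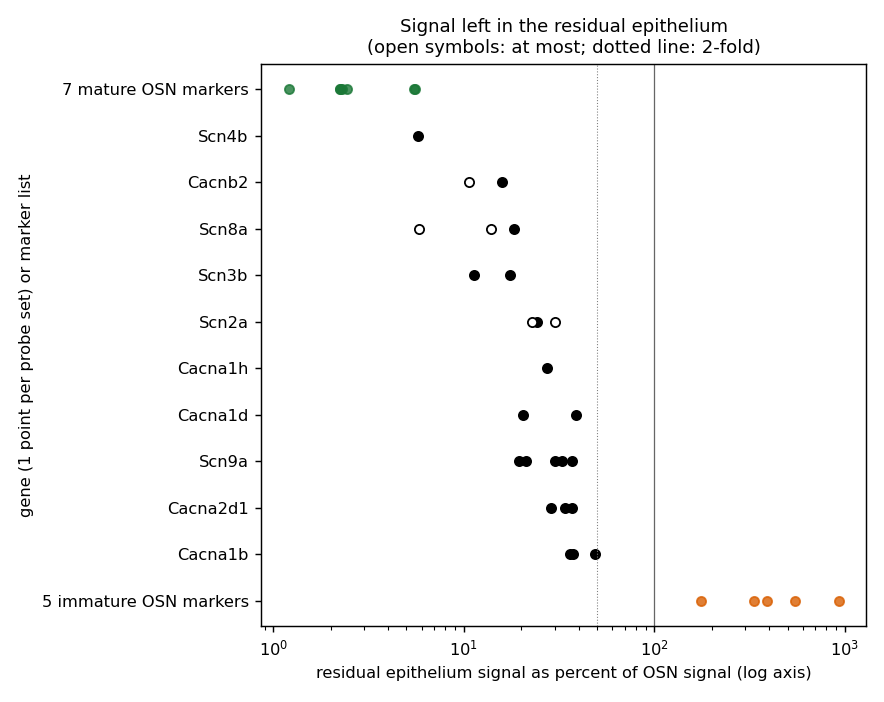
Residual epithelium signal as a percentage of the OSN signal on a log axis, with 1 point per probe set for the 10 channel genes higher in OSNs (filled, or open where the residual signal was at or below the floor and the value is an upper limit) and 1 point per gene for the mature and immature OSN markers. Scn4b lies just above the mature markers at 5.76%, Cacna1b reaches 48.9%, and the immature markers all lie above 100%.

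Proteins that bind sodium channels were read from a list of 16 genes, 15 of them on the arrays. Between OSNs and residual epithelium, 2 of the 12 counted were higher and 0 lower, with a median log2 ratio of 0, near the 12.8% of all genes for higher ones (18.7% for lower). Between OSNs and brain 1 of 15 was higher and 9 lower, with a median of -2.01, beside 18.5% and 21.1% of all genes. Residual epithelium was below brain for 12 of 15 and above it for 0, beside 18.9% and 22.5%. Fgf12, an intracellular FGF relative that binds the tail of the alpha subunit, read 10434.9 in OSNs, 688.2 in the residual epithelium and 2857.1 in brain, 15.2-fold and 3.65-fold higher in OSNs. Sptbn4, the spectrin of axon initial segments, read 1128.2, 441.2 and 1422.4, 2.56-fold above residual epithelium in OSNs. Fgf13, of the same family as Fgf12, read 21.9, 213.6 and 3063.4, at least 43.6-fold lower in OSNs than in brain. Fgf14, a further member of that family, read 3.8, 46.1 and 2482.5.

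Partners of calcium channels were read from 27 genes, 22 of them on the arrays. Between OSNs and residual epithelium 4 of the 16 counted were higher and 1 lower, beside 12.8% and 18.7% of all genes, with a median log2 ratio of 0.31. Cabp4, a calcium-binding protein of photoreceptor terminals, read 338 in OSNs, 70.6 in the residual epithelium and 4.7 in brain, with OSNs at least 4.24-fold above each of the others. Bsn, the presynaptic scaffold bassoon, read 2373.4, 666.9 and 5787.2, with OSNs 3.56-fold above residual epithelium and 2.44-fold below brain. Rims1, which tethers channels at release sites, read 1180.1, 351 and 4383.5, 3.36-fold higher than in residual epithelium. Erc2, another scaffold of release sites, read 45.4, 328.9 and 3114.1, at least 4.13-fold lower in OSNs than in residual epithelium and at least 39.1-fold lower than in brain. Between OSNs and brain 1 of the 18 counted partners was higher and 10 lower, beside 18.5% and 21.1% of all genes, with a median log2 ratio of -1.16.

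Related cation channels outside the naming rule were read from 12 genes, 9 of them on the arrays. Of the 5 counted between OSNs and residual epithelium, 0 were higher and 1 was lower (12.8% and 18.7% of all genes): Hvcn1, a proton channel of immune cells, read 26.8 in OSNs, 318.6 in the residual epithelium and 16.1 in brain, beside the higher blood and marrow markers of the residual epithelium, and their part in it was not tested. The sodium leak channel Nalcn read 211.8, 91.8 and 2920.5 and its partner Unc80 read 404.6, 603.5 and 9672.9, so both were lower in OSNs than in brain, by 13.8-fold and 23.9-fold.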

How the data were processed

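RNA from sorted OSNs, residual epithelium and brain without olfactory bulbs of OMP-GFP mice was read on 6 Affymetrix mouse expression arrays, 1 per population and chip, with RNA extracted by TRI reagent per the labels. The deposited values are probe set signals, a linear intensity that the authors computed with MAS5, which the submitters' processing notes name for 5 of the 6 arrays, with no version. The mean of signals between percentiles 2 and 98 was 499.6 to 499.9 on every array, so arrays had been scaled alike. Such scaling hides differences in total RNA. The sources used here do not give the background correction, the detection calls or whether both chips read the same extract.

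Probe sets were named from the platform annotation, updated through Entrez identifiers to RefSeq symbols. Of 45137 probe sets that are not controls, 35041 had 1 symbol, 936 had several and 9160 had none, and those with several or none were not used. No member symbol changed. Signals under the lower quartile of a chip's 3 arrays were raised to it, log2 ratios were taken within a chip, and a gene stood in by its brightest probe set, ranked within its chip by mean log2 signal over the 3 arrays. Signals of all counted members were given, and other probe sets where they differed in sign or by over 1 log2 unit. For partner lists, at most the 3 highest and 3 lowest ratios were named. The members and lists were chosen with earlier results of these data known. Alternatives changed the floor, the filter, the scaling and the choice of probe set. The computation was tested on simulated arrays. For arrays, their number limits the precision. Calculations ran in Python 3.11.15 with pandas 2.3.3 and numpy 2.4.6, and plots in matplotlib 3.10.9.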

Additional observations from a re-analysis of the deposited data

How the results depend on the processing

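No paired analysis was possible because each population was read by 1 array per chip, and no array could be left out for the same reason. In 75 of 90 settings of the 9 counts and medians the value stayed near the one reported. Near meant, for a median, a shift smaller than the SD between chips, and for a count a fixed fold limit. Of the medians 0 reversed, while a count could not reverse by its definition. With the floor at percentile 10 the counts could not change either. Counting every probe set on its own gave 25 higher and 2 lower (OSNs over residual epithelium, median log2 ratio 1.46), 14 and 32 (OSNs over brain), and 4 and 37 (residual epithelium over brain), which counts more items by construction. Without a signal filter the medians were 0, -0.68 and -1.47, as genes with low signals then enter, and 2 genes were below residual epithelium in OSNs, Cacna2d4 being the added one. With the filter at percentile 75, 0 were below and that median was 1.66. Scaling on probe sets that both chips carry gave a median of 1.55, and taking each gene's median probe set ratio gave 1.42, and the cause was not tested. That scaling also moved the median of all genes between OSNs and brain from 0.05 to -0.23, and the share of higher among all called genes from 46.7% to 35.3%. Between residual epithelium and brain the median went from 0.12 to -0.14 and the share from 54.3% to 42.7%. For channel genes the counts under it were 11 higher and 1 lower in OSNs than in residual epithelium, 5 and 18 between OSNs and brain, and 1 and 22 between residual epithelium and brain. Of 648 single-gene values under these settings, 623 kept their side of 2-fold, 4 lost a call, 7 gained one, 0 reversed and 14 were no longer counted. Of those 14, 4 had been called, all under the filter at percentile 75: Scn2a and Cacna1e (OSNs over residual epithelium) and Cacng5 (OSNs, and residual epithelium, over brain). Part of the 623 was fixed in advance, because changing the filter does not change a ratio and a floor at percentile 10 could not move a call. These settings gave 72 of the kept values without a filter, 60 with the filter at percentile 75 and 72 with that floor. Low signal limits the ratios given as minimum values, whose true size is unknown.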
